A study of Mus musculus with 6 samples.

Results

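The 9 genes described here encode proteins with which endothelium governs clotting, its arrest, the lysis of clots and the capture of platelets and leukocytes. They were chosen by symbol, as genes with these roles, but with earlier results of these data known. All 9 are present among the 18404 genes of the count table. The list covers 3 procoagulant genes (Vwf, F8, F3), 3 anticoagulant genes (Thbd, Procr, Tfpi) and the fibrinolytic gene Plat, and ends with the selectin genes Selp and Sele. They were measured by poly(A) RNA sequencing of mouse ear skin at postnatal day 3, in 3 libraries labelled ecko and 3 control libraries. Ecko pups carried a tamoxifen-induced endothelial knockout of Kdr, the gene of the VEGF-A receptor VEGFR2, and the controls were littermates. Tamoxifen is recorded for both groups, at 60 µg per day on postnatal days 1 to 2, and the series name gives an interval of 48 h. The Cre driver, the genotype of the controls and whether each library is 1 animal are not given in the sources used here. A p-value here thus weighs a difference only against the spread between libraries, which may be technical in part.

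In intact vessels endothelium keeps blood fluid. Thrombomodulin (Thbd) binds thrombin and turns it toward activation of protein C, the endothelial protein C receptor (Procr) presents protein C to that complex, and tissue factor pathway inhibitor (Tfpi) blocks the complex of tissue factor with factor VIIa. Tissue factor itself (F3) starts coagulation and is mainly made outside the vessel lumen, by cells such as keratinocytes, pericytes and fibroblasts. Von Willebrand factor (Vwf) carries factor VIII (F8) in plasma, tethers platelets and is stored with P-selectin (Selp) in Weibel-Palade bodies, while E-selectin (Sele) is made on activation of endothelium and Plat encodes tissue plasminogen activator. VEGF-A acting through VEGFR2 is known from cultured endothelial cells to induce tissue factor and to release von Willebrand factor.

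Libraries held 16987130 to 17979182 expected counts, that is, estimated read numbers. Kdr had 348, 431 and 370 counts in ecko libraries, against 1599, 1860 and 1337 in control libraries. Its log2 fold change of -2.05 ± 0.12 (SE) passed the edgeR quasi-likelihood test (adjusted p = 0.0002). Control 3 stood apart from the other libraries, with a chi-square per gene of 13.24 to 19.76 in its 5 pairs, against 4.16 to 11.5 in the other 10 pairs. Ecko 3 and control 2 were almost without Y-linked reads, at 0.877 and 0.775 summed CPM (counts scaled to a common library size), against 225 to 256 CPM in the other 4 libraries. Within each group the libraries were thus not all repeats of the same sample. The skin label was met by summed basal keratinocyte markers of 6450 to 6705 CPM in ecko and 6636 to 7340 CPM in controls, and by fibroblast markers of 20410 to 21090 CPM in ecko and 19440 to 22710 CPM in controls. Control 3 had 4777 CPM of skeletal muscle markers, against 6669 to 8529 CPM in the other libraries. Its Schwann cell markers were at 149.9 CPM, against 185.9 to 214.5 CPM. The part of this make-up in the members' values was not tested.

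Scaled to the length of exon, F3 was the most abundant of the 9 transcripts and F8 the least. F3 had 38.6 ± 0.503 CPM per kb in ecko and 40.7 ± 4.46 CPM per kb in controls (SD, n = 3 each), and F8 had 0.188 ± 0.0356 CPM per kb in ecko and 0.169 ± 0.0551 CPM per kb in controls. Between them, in order of the control means and in CPM per kb of ecko and control, stood Thbd (9.29 and 9.53), Plat (8.74 and 7.82), Tfpi (5.83 and 6.27), Procr (4.49 and 5.49), Vwf (2.08 and 2.01), Sele (1.13 and 1.56) and Selp (1.17 and 1.09). Neighbours in this order whose ranges over the 6 libraries overlapped were Thbd with Plat, Tfpi with Procr, Vwf with Sele, and Sele with Selp. F3 lay above Thbd, Plat above Tfpi, Procr above Vwf and Selp above F8 in all 6 libraries. Skin holds several cell types that make these transcripts, so a level covers all of them.

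**Figure D1:**
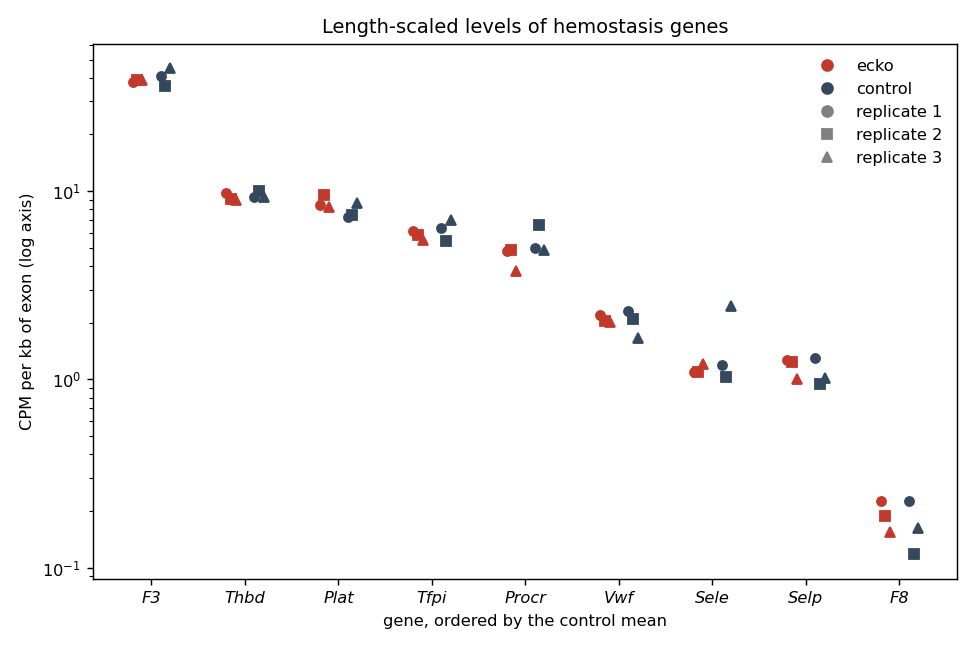
Level of each hemostasis gene in each of the 6 libraries, in CPM per kb of exon on a log axis, with ecko libraries in red to the left of control libraries in dark blue and replicates by symbol. The order runs from F3, at 36.0 to 44.9 CPM per kb, to F8, at 0.117 to 0.227 CPM per kb, and both groups lie at similar heights for each gene.

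No member differed between ecko and control skin beyond the spread between libraries. All 9 passed the filter on low counts and were tested. By edgeR's quasi-likelihood test 0 were called higher and 0 lower at an adjusted p of 0.05, where over all 14920 genes tested 0% were called higher and 0.0067% lower. At an unadjusted p under 0.05 the count was also 0 of 9, against 9.01% of all genes, and the DESeq2 Wald test and limma-voom each called 0 members. Ecko and control values overlapped in all 9, where they were apart in 15.7% of all genes, 7.55% with ecko higher and 8.11% with ecko lower. Of the 9 log2 fold changes 4 were above and 5 below 0, with a median of -0.04, beside 50.5% of all genes below 0 and a median of -0.002. When ecko 1, ecko 2, ecko 3, control 1, control 2 or control 3 was left out, the groups were apart in 1, 1, 0, 0, 2 and 2 members, against 20.6%, 27%, 26.5%, 30.7%, 26.2% and 26.4% of all genes.

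The width of the intervals says what change in whole skin these libraries could have missed. It does not bound a change within endothelium alone, since other skin cells also make some of these transcripts. For 6 of the 9, namely Vwf, F3, Thbd, Tfpi, Plat and Selp, the 95% interval of the fold change lay within 1.5-fold either way. Procr and F8 had intervals that reached past 1.5-fold on 1 side and stayed within 2-fold. The interval of Sele reached 0.447-fold.

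**Figure D2:**
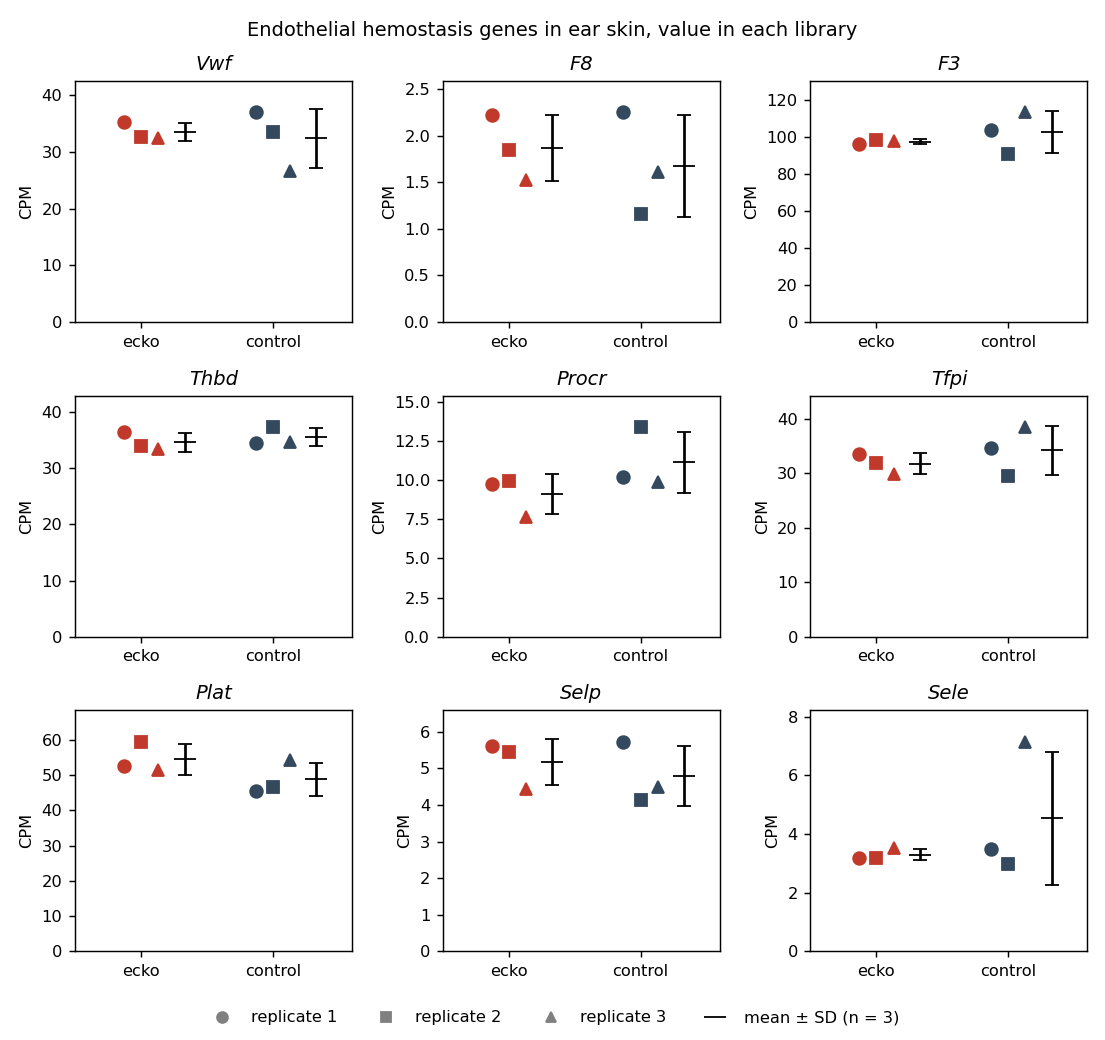
CPM of each hemostasis gene in every library, with ecko in red on the left and control in dark blue on the right, symbols for replicates, and bars for the mean ± SD of 3 libraries. Groups overlap in all 9 panels, and the library farthest from the others is control 3 for Sele, at 7.15 CPM.

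Among the procoagulant genes, Vwf (Entrez 22371, chromosome 6, 125552948 to 125686679 in GRCm38.p6) was nearly level. It had 35.3, 32.6 and 32.4 CPM in ecko libraries 1 to 3, against 36.9, 33.5 and 26.6 CPM in control libraries 1 to 3. The ecko values lay inside the range of the controls, whose lowest value was control 3. The log2 fold change was 0.05 ± 0.11 (SE, edgeR adjusted p = 0.912), with a 95% interval of -0.20 to 0.30. Without control 3 it was -0.07, the only one of the 6 ways to leave out 1 library in which it was below 0.

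F8, for the cofactor of factor IXa (Entrez 14069, chromosome X, 75170344 to 75382738), was close to the depth limit. Counts were 40, 33 and 26 in ecko libraries and 40, 21 and 28 in control libraries. Both groups shared the same highest count, and control 2 was lowest. The log2 fold change was 0.16 ± 0.28 (SE, edgeR adjusted p = 0.884), with a 95% interval of -0.47 to 0.79, and it was -0.05 without control 2 and 0.43 without control 1. At a mean of 31.3 counts, counting error alone gives a coefficient of variation of 17.9%, beside 18.9% observed in ecko and 32.6% in controls. The gene is X-linked and the groups mix libraries with and without Y-linked reads, and with the Y-linked level as a covariate the log2 fold change was also 0.16. Its annotated exons share 121 bases with the span of Fundc2 on the opposite strand, and the strand setting of the counting is not given in the sources used here.

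F3 (Entrez 14066, chromosome 3, 121723537 to 121735052) was the steadiest member across ecko libraries, with a coefficient of variation of 1.3%. It had 96.2, 98.6 and 98.1 CPM in ecko libraries, against 104, 91.0 and 114 CPM in control libraries. The 3 ecko values lay between the lowest and the middle control. The log2 fold change was -0.07 ± 0.08 (SE, edgeR adjusted p = 0.796), with a 95% interval of the fold change of 0.842 to 1.07. Without control 3 it was 0.01, and without control 2 it was -0.16.

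Because F3 was the most abundant member and is a known target of VEGF signalling, its promoter is shown together with those of the selectins, which are neighbours in the genome. Each window holds 300 bases around a RefSeq start in GRCm38.p6, all on the plus strand. Capitals mark matches to TGANTCA, a loosened form of the AP-1 motif TGA(C/G)TCA that takes any middle base. F3 lies at chr3:121723287-121723586, Sele at chr1:164047984-164048283 and Selp at chr1:164115014-164115313.
F3: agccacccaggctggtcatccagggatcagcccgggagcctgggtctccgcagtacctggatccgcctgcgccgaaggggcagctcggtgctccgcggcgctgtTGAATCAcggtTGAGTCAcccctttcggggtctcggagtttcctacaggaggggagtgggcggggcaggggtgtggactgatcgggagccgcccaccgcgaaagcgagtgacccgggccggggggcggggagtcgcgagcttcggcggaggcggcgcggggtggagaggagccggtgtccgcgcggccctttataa
Sele: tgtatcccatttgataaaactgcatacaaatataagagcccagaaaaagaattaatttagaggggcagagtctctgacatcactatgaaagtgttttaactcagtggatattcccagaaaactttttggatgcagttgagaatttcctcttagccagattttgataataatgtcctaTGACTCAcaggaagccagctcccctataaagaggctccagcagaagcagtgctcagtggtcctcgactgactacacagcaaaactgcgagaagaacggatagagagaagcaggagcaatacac
Selp: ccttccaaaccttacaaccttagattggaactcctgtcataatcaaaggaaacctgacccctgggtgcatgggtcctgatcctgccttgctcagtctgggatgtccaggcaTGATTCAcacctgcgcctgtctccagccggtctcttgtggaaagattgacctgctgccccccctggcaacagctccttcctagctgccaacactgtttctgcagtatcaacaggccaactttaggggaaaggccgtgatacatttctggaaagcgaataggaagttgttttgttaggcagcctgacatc
The F3 window held 2 matches, TGAATCA and TGAGTCA, which begin 146 and 135 bases upstream of the start. Sele had TGACTCA at 73 bases and Selp had TGATTCA at 139 bases upstream. Of these, only TGAGTCA in F3 and TGACTCA in Sele have the C or G of the stricter motif. The Sele window surrounds a start inside the span given below for Sele, so its match is not upstream of that span. The motif equals its own reverse complement, so both strands give the same matches. The Procr window held 1 as well, and the F8 window and both Tfpi windows held 0. At least 1 match was thus present in 4 of 7 member windows, beside 7.81% of all 32851 RefSeq promoter windows. Of 3 other motifs searched on both strands, TATAAA was in 3 of 7 member windows (13.6% of all), the SP/KLF motif GGGCGG in 3 of 7 (35.7% of all) and the ETS core GGAAG in 6 of 7 (71.4% of all). No match to TGANTCA overlapped a match to these. A match shows only that the letters are there, and the motif to print was chosen after the sequences had been seen.

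Of the anticoagulant genes, all 3 had lower means in ecko and none passed. Thbd (Entrez 21824, chromosome 2, 148404471 to 148408188), the thrombin receptor, varied least over the 6 libraries. It had 36.5, 34.0 and 33.3 CPM in ecko libraries, against 34.5, 37.3 and 34.7 CPM in control libraries. Each group had 1 library slightly above its other 2, ecko 1 and control 2. Ecko relative to control gave a log2 fold change of -0.04 ± 0.08 (SE, edgeR adjusted p = 0.902), with a 95% interval of the fold change of 0.866 to 1.1.

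Procr (Entrez 19124, chromosome 2, 155751125 to 155755478), the receptor that presents protein C, had the second lowest log2 fold change of the 9. It had 9.74, 9.92 and 7.66 CPM in ecko libraries, against 10.2, 13.4 and 9.86 CPM in control libraries. Control 2 was the highest and ecko 3 the lowest, and the groups overlapped only because ecko 2 stood just above control 3. The log2 fold change was -0.29 ± 0.16 (SE), the unadjusted p 0.095 and the edgeR adjusted p 0.611, with a 95% interval of the fold change of 0.642 to 1.04. Without control 2 the log2 fold change was -0.14. Without control 3 it was -0.365, with an unadjusted edgeR p of 0.0398 and an adjusted p of 0.522.

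Tfpi (Entrez 21788, chromosome 2, 84432855 to 84476775) had 33.6, 32.0 and 29.9 CPM in ecko libraries, against 34.7, 29.5 and 38.5 CPM in control libraries. The 3 ecko values lay within the range of the controls, and control 3 was the highest of all. This gave a log2 fold change of -0.11 ± 0.10 (SE, edgeR adjusted p = 0.773), with a 95% interval of -0.33 to 0.12. It was -0.01 without control 3 and -0.21 without control 2.

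Plat (Entrez 18791, chromosome 8, 22757722 to 22782848), the main plasminogen activator released by endothelium, had a log2 fold change as high as that of F8, above the other 7. It had 52.6, 59.5 and 51.4 CPM in ecko libraries, against 45.4, 46.7 and 54.3 CPM in control libraries. The highest value was ecko 2, while control 3 lay above ecko 1 and ecko 3. The log2 fold change was 0.16 ± 0.09 (SE), the unadjusted p 0.106 and the edgeR adjusted p 0.622, with a 95% interval of the fold change of 0.972 to 1.28. Without control 3 the log2 fold change was 0.25 with an unadjusted p of 0.0097 and an edgeR adjusted p of 0.41. In that setting the groups of Plat and of Procr no longer overlapped, as in 26.4% of all genes.

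The selectin genes Sele (Entrez 20339, 164039614 to 164058487) and Selp (Entrez 20344, 164115264 to 164150026) lie on chromosome 1, 56.8 kb apart. Sele had 57, 57 and 60 counts in ecko libraries, against 62, 54 and 124 in control libraries. Control 3 was far above the other 5 libraries, which lay between 2.99 and 3.51 CPM. The log2 fold change of -0.46 ± 0.31 (SE, edgeR adjusted p = 0.677) was the lowest of the 9 and rested on that library, since without control 3 it was 0.03. Without control 2, and so with control 3 kept, it was -0.69, with an unadjusted edgeR p of 0.0359 and an adjusted p of 0.59.

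Selp had 5.62, 5.44 and 4.45 CPM in ecko libraries, against 5.73, 4.15 and 4.50 CPM in control libraries. Here control 3 did not stand out, and the highest value was control 1. Its log2 fold change was 0.11 ± 0.18 (SE, edgeR adjusted p = 0.873), with a 95% interval of -0.29 to 0.51, and it was 0.01 without control 2 and 0.26 without control 1. Platelets also carry P-selectin and von Willebrand factor, and summed platelet and megakaryocyte markers were 76.8 to 83.2 CPM in ecko and 78.0 to 82.2 CPM in controls. Most of that sum came from Pf4 (33.5 CPM in ecko and 34.2 CPM in controls) and Itgb3 (32.2 and 31.2 CPM). Of those 13 markers 5 were tested and 0 passed, and Gp6 and Clec1b had at most 1 count in any library. The part of platelets in the values of Selp and Vwf was not tested. Annotated exons of Selp also lie within Gm16587 and Gm16548 on the opposite strand, neither of which is in the count table.

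Pan-endothelial markers had a lower median than the hemostasis genes. Of the 20 markers 17 had a log2 fold change below 0, with a median of -0.17, and in 8 the groups did not overlap, all lower in ecko, against 8.11% of all genes. By edgeR 0 of the 20 passed the adjusted threshold, and DESeq2 and limma-voom called 0. An unadjusted edgeR p under 0.05 was reached by 8, all lower in ecko, beside 9.01% of all genes in both directions. Their summed level was 769 to 827 CPM in ecko and 823 to 1000 CPM in controls, a ratio of 0.89. In bulk skin, fewer endothelial cells and less RNA per cell cannot be told apart. Lymphatic endothelial markers summed to 172 to 196 CPM in ecko and 180 to 193 CPM in controls, a ratio of 1.01. Erythroid markers were at 1256 to 1657 CPM in ecko and 929 to 2198 CPM in controls, and all 6 had a log2 fold change below 0. All 7 macrophage markers had one above 0, with a summed ratio of 1.1, and neutrophil markers were at 11.9 to 51.0 CPM in ecko and 8.41 to 20.4 CPM in controls, a ratio of 2.25. The neutrophil sum was 51.0 CPM in ecko 1, against 24.2 and 11.9 CPM in ecko 2 and 3. By edgeR 0 genes of these 4 lists passed, DESeq2 called 1 (Csf3r, a neutrophil marker, higher in ecko) and limma-voom 0. An unadjusted edgeR p under 0.05 was reached by 2 macrophage markers, both higher in ecko, and 3 neutrophil markers, beside 9.01% of all genes. Of the 3 neutrophil markers 2 were higher in ecko and 1 lower, namely Camp, with 2, 7 and 4 counts in ecko libraries and 15, 20 and 16 in control libraries. The part of these cell types in the members' values was not tested.

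Set against that endothelial sum, the hemostasis genes stood as follows. Per 1000 pan-endothelial counts, Vwf had 41.8 ± 3.59 in ecko and 35.9 ± 5.23 in controls, Plat had 68.0 ± 5.61 in ecko and 54.7 ± 10.0 in controls, and Procr had 11.4 ± 1.85 in ecko and 12.3 ± 0.963 in controls (SD, n = 3 each). Groups overlapped for all 9 genes on this scale too. With libraries scaled to the endothelial sum the median over all genes moved to 0.16 and that of the 9 genes to 0.13, and 0 of the 9 passed. F8 and Plat then had the highest log2 fold changes, 0.32 each, and the smallest adjusted p over the 9 was 0.21 for Plat, from edgeR. F3, Thbd and Tfpi changed sign under this scaling, to 0.08, 0.13 and 0.05. The difference between the hemostasis genes and the endothelial markers was not tested.

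**Figure D3:**
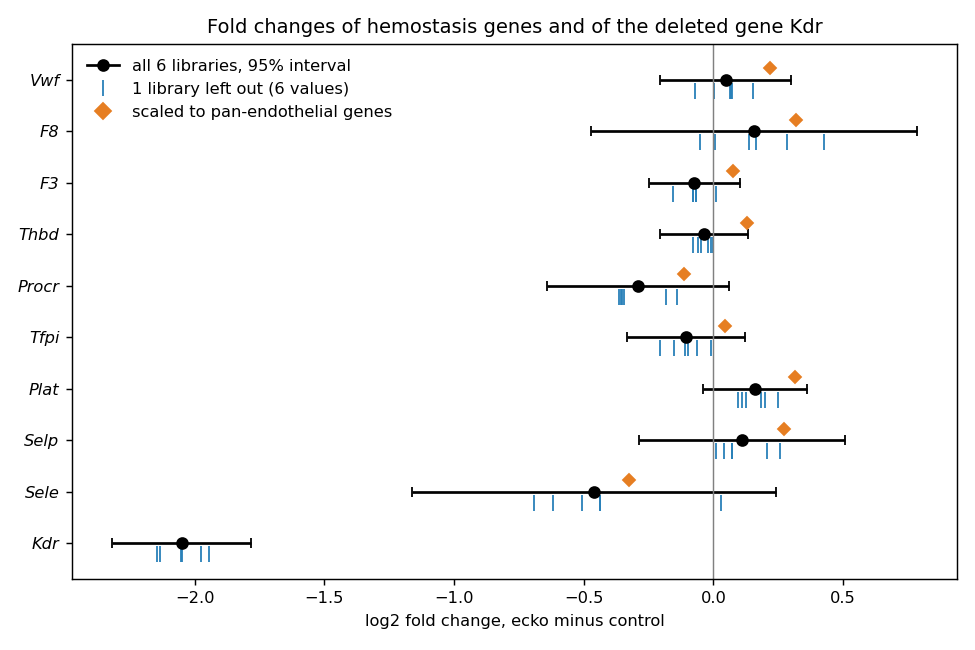
Log2 fold change of each hemostasis gene and of Kdr, ecko minus control, with the 95% interval from edgeR in black, the values with 1 library left out as blue ticks and the value after scaling to pan-endothelial genes as an orange diamond. All 9 hemostasis intervals hold 0, while Kdr lies at -2.05, and the ticks of Sele run from -0.69 to 0.03.

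None of the partner genes of the same system passed the edgeR test. In the 8 partner lists that follow, 4 of 73 tested genes had an unadjusted p under 0.05 (Plau, Nos3, Ptgir and Podxl), or 5.48% beside 9.01% of all genes, and limma-voom and the DESeq2 Wald test called 0. Among these 73, groups did not overlap in Hs3st1, Plau and Ptgir, higher in ecko, and in Rab3d, Nos3 and Podxl, lower. Over all genes tested the groups were apart in 15.7%, so such separation was not particular to these genes. Of 14 coagulation factor genes, most of which are made in liver, 9 were in the table and 3 were tested, with 0 called in either direction and a median log2 fold change of 0.20. F13a1, for the fibrin-crosslinking subunit that resident macrophages make, had 208 ± 38.5 CPM in ecko and 181 ± 19.6 CPM in controls (SD, n = 3 each), a log2 fold change of 0.20 ± 0.14 (SE). Its levels are set beside summed macrophage markers of 604 to 671 CPM in ecko and 552 to 645 CPM in controls, whose part in that value was not tested. F10 and F5, of the prothrombin-activating complex, had log2 fold changes of 0.49 ± 0.32 and 0.05 ± 0.17.

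Of 12 anticoagulant partner genes 5 were tested and 0 passed, with a median log2 fold change of 0.08. Pros1, for the protein S cofactor of activated protein C, had 94.1 ± 3.27 CPM in ecko and 88.8 ± 2.50 CPM in controls. Log2 fold changes were 0.12 for the inhibitor gene Tfpi2 and -0.10 for the thrombin receptor gene F2r. Hs3st1, for a sulfotransferase that makes antithrombin-binding heparan sulfate, had 6.32 ± 0.136 CPM in ecko and 5.58 ± 0.347 CPM in controls, with groups that did not overlap and an edgeR adjusted p of 0.704.

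Among 13 fibrinolysis partners 10 were tested and 0 passed, with a median log2 fold change of 0.03. Plau, for urokinase, the other plasminogen activator, had 926, 778 and 769 counts in ecko libraries, against 737, 687 and 645 in control libraries. Every ecko library was above every control library. Its log2 fold change was 0.26 ± 0.09 (SE), with an unadjusted p of 0.0115 and an edgeR adjusted p of 0.471. The receptor Anxa2, the tPA-clearing receptor gene Lrp1 and the neuronal tPA inhibitor gene Serpini1 had log2 fold changes of -0.08, 0.08 and 0.24.

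In the list of 20 genes for storage and secretion of von Willebrand factor and factor VIII, 17 were tested and 0 passed, with a median log2 fold change of -0.01. Stxbp5, a syntaxin-binding inhibitor of release, had 0.11, the SNARE gene Vamp3 -0.09, the priming factor gene Unc13d 0.16 and Rab3d -0.06. Adamts13, for the protease that cleaves von Willebrand factor, had at most 9.42 counts in a library and was not tested.

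All 6 genes of vasoactive platelet inhibition were tested and 0 passed, with a median log2 fold change of -0.03. Nos3, the endothelial nitric oxide synthase gene, had 131, 129 and 143 counts in ecko libraries, against 190, 170 and 157 in control libraries. The ecko libraries were all below the controls, with a log2 fold change of -0.35 ± 0.13 (SE) and an edgeR adjusted p of 0.513. Ptgir, for the prostacyclin receptor of platelets and smooth muscle, had 73, 82 and 78 counts in ecko libraries and 64, 60 and 25 in control libraries. Control 3 was lowest by far, and the log2 fold change of 0.66 ± 0.28 had an edgeR adjusted p of 0.551. The ectonucleotidase genes Entpd1 and Nt5e had log2 fold changes of 0.08 and -0.04.

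Of 15 selectin ligand genes 11 were tested and 0 passed, with a median log2 fold change of -0.02. Podxl, a sialomucin of endothelium, had 537, 545 and 476 counts in ecko libraries, against 688, 761 and 575 in control libraries. Its groups did not overlap, and the log2 fold change of -0.37 ± 0.10 (SE) had an edgeR adjusted p of 0.359. Selplg, for the main P-selectin ligand of leukocytes, had a log2 fold change of 0.15, the sialomucin gene Cd34 had -0.07 and Glg1, for an E-selectin ligand, had 0.05.

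Genes of endothelial activation and of endothelial transcription were measured as a setting for the selectins and F3. Of 13 activation genes 10 were tested and 0 passed, with a median log2 fold change of -0.04. The adhesion gene Icam1 had 0.13, Vcam1 -0.18 and the survival gene Birc3 0.13, and the chemokine gene Cxcl2 had 0, 4 and 10 counts in ecko libraries and 17, 5 and 14 in control libraries. All 11 regulator genes were tested and 0 passed, with a median of -0.08. Ets1 had -0.17, Erg -0.14, Nr4a1 -0.23 and Egr3 0.20.

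**Figure D4:**
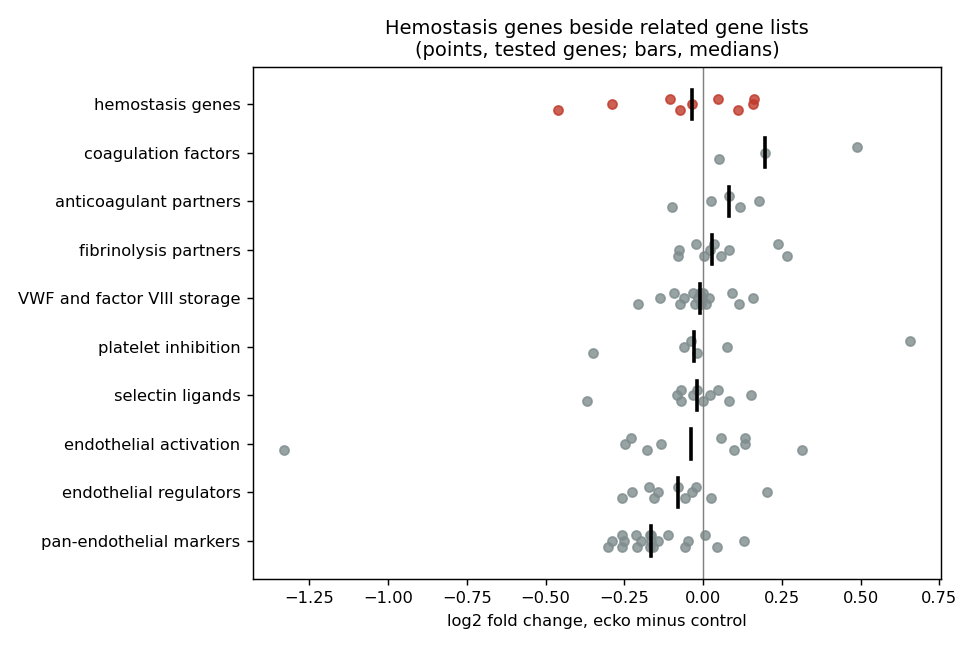
Log2 fold change, ecko minus control, of each tested gene in the hemostasis list (red) and in 9 related lists (grey), with a black bar at each median. The hemostasis median is -0.04 and the pan-endothelial median -0.17, and the points farthest from 0 are Ptgir at 0.66 and Cxcl2 at -1.33.

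Control libraries were the highest for 8 of the 9 members and the lowest for 7. Control 1 was the highest for Vwf, F8 and Selp and the lowest for Plat. Control 2 was the lowest library for F8, F3, Tfpi, Selp and Sele and the highest for Thbd and Procr, while control 3 was the highest for F3, Tfpi and Sele and the lowest for Vwf. Ecko 1 was neither the highest nor the lowest for any of the 9.

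Likeness to other genes was taken as the root mean square distance between log2 CPM values centred on each gene's mean over the 6 libraries, among 14184 other genes that averaged 20 counts or more. For Sele the closest was Sh2d4b at 0.0492, followed by Atf3 at 0.133, where the median gene was at 0.432. Vwf was closest to Ndst2 (0.0265), F3 to Cox6c (0.0235) and Cdt1, Plat to Gm8909 (0.03) and Medag, and Tfpi to Lin7c (0.0321) and Nrxn3. Thbd was closest to Zfp511 (0.0199) and Bloc1s3, Procr to Npc1l1 (0.0633) and Tubb3, Selp to Cbr2 (0.0328) and Oas1f, and F8 to Mfsd7a (0.0627) and Grik2. None of the neighbours was another member. With 6 points per gene and so many genes such closeness only describes these libraries.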

How the data were processed

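The authors deposited 1 table of expected counts per gene, estimated read numbers that are not scaled between libraries, a unit taken from the 10.1% to 10.4% of values in each library that are not whole. The values of the 9 members were whole in all libraries. Per the submitters' processing notes, HISAT2 2.2.1, Bowtie2 2.4.5, RSEM 1.3.1 and GRCm38.p6 were used, with no role given, and the annotation is not given in the sources used here.

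Counts were rounded and tested as ecko minus control with edgeR 4.0.16 in R 4.3.3 (filterByExpr with a minimum count of 10, TMM, robust glmQLFit). Two-sided p-values were adjusted by the Benjamini-Hochberg method across the 14920 tested genes. The SE was derived from the fold change and its F statistic. CPM uses TMM-scaled library sizes, and exon length is the union of GENCODE vM21 exons. The script was tested on simulated data. Alternatives used DESeq2 1.42.0, limma 3.58.1 and the settings given below. RefSeq coordinates and promoters are of GRCm38.p6, and the promoter table matched 6 of the 9 members, not Vwf, Thbd and Plat.

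Members and lists were chosen with earlier results of these data known. Named are all members, Kdr, the 4 genes of each pathway list with the smallest p, and the 2 nearest genes per member, and a few genes that these rules take are not reported here and left out of the lists or text. Adamts13, Pf4, Itgb3, Gp6, Clec1b, Csf3r and Camp were named after their values were seen. Reads carry no molecular identifiers, so counting error covers read sampling alone.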

Additional observations from a re-analysis of the deposited data

How the results depend on the processing

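The members stayed uncalled under all 15 alternatives, with adjusted p from 0.21 to 0.999. With 1 library left out the members' median ran from -0.0657 to 0.00923. The number of members without overlap then ran from 0 to 2, a count added after the data were seen. It was 2 without control 2 (F3 and Tfpi lower), beside 26.2% of all genes. It was also 2 without control 3 (Plat higher and Procr lower), beside 26.4% of all genes. Scaling to pan-endothelial genes gave a median of 0.13, and turned F3 to 0.077, Thbd to 0.130 and Tfpi to 0.046. With 1 library left out Vwf ran from -0.069 to 0.152, F8 from -0.052 to 0.428, F3 from -0.156 to 0.009 and Sele from -0.692 to 0.029.

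Over all genes the count higher in ecko was 87 with the DESeq2 Wald test, 88 with a replicate block, 1 with the Y-linked covariate and 0 to 2 with 1 library left out (2 without ecko 3). The count lower was 26 with the DESeq2 Wald test and 10 with the replicate block. The cause was not tested. Libraries with equal replicate numbers share only the number, and 0 members were called with the block. Deviations from the group means correlated across genes at 0.182, -0.293 and -0.0924 for equal numbers, and not every library correlated best with its own number. The highest correlation, 0.405, was between ecko 3 and control 2, the libraries almost without Y-linked reads. The part of sex in it was not tested. Kdr stayed past the threshold under its 14 alternatives, at -2.144 to -1.945 with 1 library left out. Counting error alone gives its largest coefficients of variation for F8 and Sele, 17.9% and 12.0%. The controls of Sele varied far more than that, by 50.1%, with control 3 the highest.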

Other observations

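Members were also set against each other within each library, as 4 ratios of counts chosen after the data were seen. The ratio of F3 to its inhibitor gene Tfpi was 2.86, 3.09 and 3.28 in ecko libraries, against 2.99, 3.08 and 2.95 in control libraries. Its mean was 3.08 ± 0.21 in ecko and 3.01 ± 0.0711 in controls (SD, n = 3 each), and the groups overlapped. Thbd to Procr was 3.84 ± 0.471 in ecko and 3.23 ± 0.39 in controls, and Vwf to F8 was 18.3 ± 2.78 in ecko and 20.6 ± 7.13 in controls. Selp to Sele was 1.77, 1.70 and 1.27 in ecko libraries, against 1.65, 1.39 and 0.629 in control libraries, with control 3 lowest. By exact two-sided permutation of the libraries the smallest p among the 4 ratios was 0.2, or 0.8 after Benjamini-Hochberg adjustment over them, where 3 against 3 libraries allow no p below 0.1.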
